A study of Mus musculus with 45 samples.

Results

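The 10 integrin receptor genes described here were Itga1, Itga2, Itga3, Itga5, Itga6, Itgav, Itgb1, Itgb4, Itgb5 and Itgb6, taken by gene name from 2 expression tables of mouse Lgr5+ intestinal stem cells and intestinal organoids. They are 10 of 27 integrin subunit genes, and of 52636 genes, listed in the tables, and every one of the 10 passed the filter on low values in every comparison. The study asked what the receptor Lgr5 does in stem cells of the developing gut, and measured RNA in 45 libraries. Of these, 15 came from sorted stem cells and 30 from organoids grown with 1 of 3 Rspondins, secreted proteins that bind Lgr5 and its relatives and strengthen Wnt signaling.

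The sorted embryonic cells were eGFP+ cells of the Lgr5-DTReGFP line, a knock-in whose cassette disrupts Lgr5, so that heterozygous controls (HE) also carried 1 disrupted allele and knockouts (KO) carried 2. At E16.5 there were 2 HE pools of 7 and 8 embryos and 2 KO pools of 2 and 6 embryos, and each HE pool came from the same litter as the KO pool of its number. HE cells of 2 embryos at E18.5, and of the duodenum and ileum of 2 adult mice aged 2 months, completed the series of stages. In a second line, cells positive for eGFP and RFP were sorted from the ileum of 2 month-old mice 48 hours after 2 mg of tamoxifen. These were 2 Lgr5-Cre/+ heterozygous mice (HE) and 3 Lgr5-Cre/flox mice (cKO), in which tamoxifen lets Cre remove the remaining Lgr5 allele in cells that use the Lgr5 promoter. Organoids of the Lgr5-DTReGFP line came from E17.5 embryos, at passage 4, as 3 wild-type (WT) cultures numbered 10, 5 and 30 and 2 KO cultures numbered 7 and 2. Each culture was split over Rspo1, Rspo2 and Rspo3 at 100 and 5 ng/ml.

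Integrins are pairs of an alpha and a beta subunit that span the plasma membrane, grip proteins of the extracellular matrix outside the cell and tie them to the actin or keratin skeleton inside. The alpha subunit largely sets the ligand: Itga3 and Itga6 serve laminins of the basement membrane, Itga1 and Itga2 serve collagens, and Itga5 and Itgav serve fibronectin, vitronectin and other proteins with an RGD motif. Itgb1 pairs with most of these alpha subunits, Itgb4 pairs with Itga6 alone and anchors epithelium through hemidesmosomes, and Itgb5 and Itgb6 pair with Itgav. In the gut these receptors hold the epithelium, crypt stem cells included, on its basement membrane.

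Values are CPM, a gene's reads scaled to the same total for every library. Sorted-cell libraries held 1275950 to 9984665 reads, so that 1 read was worth 0.1002 to 0.7837 CPM, and organoid libraries 18127272 to 33105457 reads, where 1 read was worth 0.0302 to 0.0552 CPM. The 2 sets were made with different library kits, so levels were not compared between them. All 8 epithelial markers (Epcam, Cdh1 and others) were detected in every sorted group, with summed levels of 3075.7 to 7446.8 CPM. The summed level of 12 mesenchyme markers was 498.65 to 629.6 CPM in the E16.5 HE pools, 101.3 to 269.75 CPM in the E16.5 KO pools, 38.85 to 55.35 CPM at E18.5 and 3.0 to 7.05 CPM in adult HE cells. Of the 12 markers, 10 were detected in every KO pool and every E18.5 library, and Twist1 and Twist2 were listed at 0 there. In bulk RNA, fewer cells of a type and less RNA per cell cannot be told apart. The summed level of 6 Paneth cell markers was 83.9 to 267.05 CPM in embryonic cells and 11378 to 28689 CPM in adult HE cells. In the tamoxifen line, an expression table supplied with the study held equal values in 859 of 859 genes for each library but gave the library labelled HE replicate 1 as cKO and that labelled cKO replicate 2 as HE. Results of that comparison are therefore given by both sets of genotypes.

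The genes lie on 6 chromosomes of the GRCm38 build, and each is named here with its Ensembl identifier and span. The collagen receptor genes are neighbours on the minus strand of chromosome 13, with Itga2 (ENSMUSG00000015533) at chr13:114833081-114932100 and Itga1 (ENSMUSG00000042284) at chr13:114953096-115101964, 20995 bases apart with 1 gene between them. The laminin receptor genes are Itga3 (ENSMUSG00000001507, chr11:95044474-95076801, minus strand), Itga6 (ENSMUSG00000027111, chr2:71745616-71858416, plus strand) and Itgb4 (ENSMUSG00000020758, chr11:115974709-116008412, plus strand). Itgb1 (ENSMUSG00000025809) spans chr8:128685654-128733200 on the plus strand. The genes for RGD receptors are Itga5 (ENSMUSG00000000555, chr15:103344286-103366763, minus strand), Itgav (ENSMUSG00000027087, chr2:83724397-83806916, plus strand), Itgb5 (ENSMUSG00000022817, chr16:33829665-33949338, plus strand) and Itgb6 (ENSMUSG00000026971, chr2:60598292-60722643, minus strand). Exons of Itga1 share 685 bases with Gm49395 on the same strand, those of Itgb4 share 537 bases with B230344G16Rik and those of Itgav share 634 bases with Gm13684 on the opposite strand. Whether reads were counted by strand is not stated, so reads within these shared bases cannot be assigned with certainty.

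RefSeq promoter windows, 250 bases before to 50 bases after the transcription start in GRCm38.p6, were given for 8 of the 10 genes. The 4 shown belong to the genes called between Rspondin doses in 5 of 6 contrasts described further on, 3 of them higher and Itga3 lower at the high dose. Each is read 5′ to 3′ on the gene's own strand, with capitals marking matches to a word CTTTGAA, a related word CTTTGAT, the further form CTTTGTA or the last form CTTTGTT, core letters read by the Wnt effectors TCF and LEF, or to the GC box GGGCGG, searched on both strands.
Itga1 promoter (chr13:115101915-115102214, minus strand): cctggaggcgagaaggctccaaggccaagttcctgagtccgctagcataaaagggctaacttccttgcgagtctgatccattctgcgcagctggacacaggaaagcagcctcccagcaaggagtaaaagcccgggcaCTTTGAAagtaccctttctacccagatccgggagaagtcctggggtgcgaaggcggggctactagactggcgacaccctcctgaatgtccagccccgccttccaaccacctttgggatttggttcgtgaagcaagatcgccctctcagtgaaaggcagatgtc
Itga2 promoter (chr13:114932051-114932350, minus strand): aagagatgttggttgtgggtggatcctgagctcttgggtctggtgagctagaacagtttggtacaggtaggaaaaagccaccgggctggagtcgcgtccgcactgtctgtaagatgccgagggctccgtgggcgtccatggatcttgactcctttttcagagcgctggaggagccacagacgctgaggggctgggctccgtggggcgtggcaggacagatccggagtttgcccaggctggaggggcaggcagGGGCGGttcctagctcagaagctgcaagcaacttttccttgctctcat
Itgb6 promoter (chr2:60722554-60722853, minus strand): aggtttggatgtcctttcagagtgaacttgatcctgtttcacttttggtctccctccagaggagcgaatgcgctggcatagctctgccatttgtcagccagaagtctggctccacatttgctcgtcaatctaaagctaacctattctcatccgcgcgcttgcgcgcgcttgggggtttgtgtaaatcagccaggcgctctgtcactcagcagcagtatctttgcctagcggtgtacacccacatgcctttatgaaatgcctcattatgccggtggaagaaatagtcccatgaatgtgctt
Itga3 promoter (chr11:95076665-95076964, minus strand): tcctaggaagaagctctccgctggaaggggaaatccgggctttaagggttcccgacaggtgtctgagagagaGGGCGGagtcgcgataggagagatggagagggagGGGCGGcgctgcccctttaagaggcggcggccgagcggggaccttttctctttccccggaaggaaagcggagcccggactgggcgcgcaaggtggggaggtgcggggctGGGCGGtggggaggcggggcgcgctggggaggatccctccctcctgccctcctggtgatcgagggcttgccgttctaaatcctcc

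Only the Itga1 window among the 8 held a TCF/LEF word, CTTTGAA, which begins 113 bases before the start. Among all 32544 distinct promoter windows of that table, 16.9% held at least 1 such word. The Itga3 window held 3 GC boxes, the Itga2 window 1 and the Itgb6 window none, against 35.9% of all windows with at least 1. These matches describe letters in the windows and not binding of a factor.

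Levels of different genes can be set side by side only per kilobase of exon. On that scale Itgb1 stood highest in every embryonic group, at 84.3 ± 7.1 CPM per kb in the E16.5 HE pools and 60.9 ± 1.2 CPM per kb at E18.5 (SD, n = 2 each). Itga6 followed at 21.3 ± 2.6 and 45.5 ± 0.34 CPM per kb. In adult duodenum Itga6 stood at 54.1 ± 7.6 and Itgb1 at 49.3 ± 0.83 CPM per kb, and these 2 levels lay within their spread. Itga5 and Itga1 took the 2 lowest places in the E16.5 HE, E16.5 KO and E18.5 groups, at 0.345 to 2.26 CPM per kb, and did not differ from each other beyond their spread in any of these 3 groups. The order of Itga6 and Itgb1 depends on the exon length used, because with the longest transcript Itga6 stood at 95.2 and Itgb1 at 65.1 CPM per kb at E18.5.

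**Figure D1:**
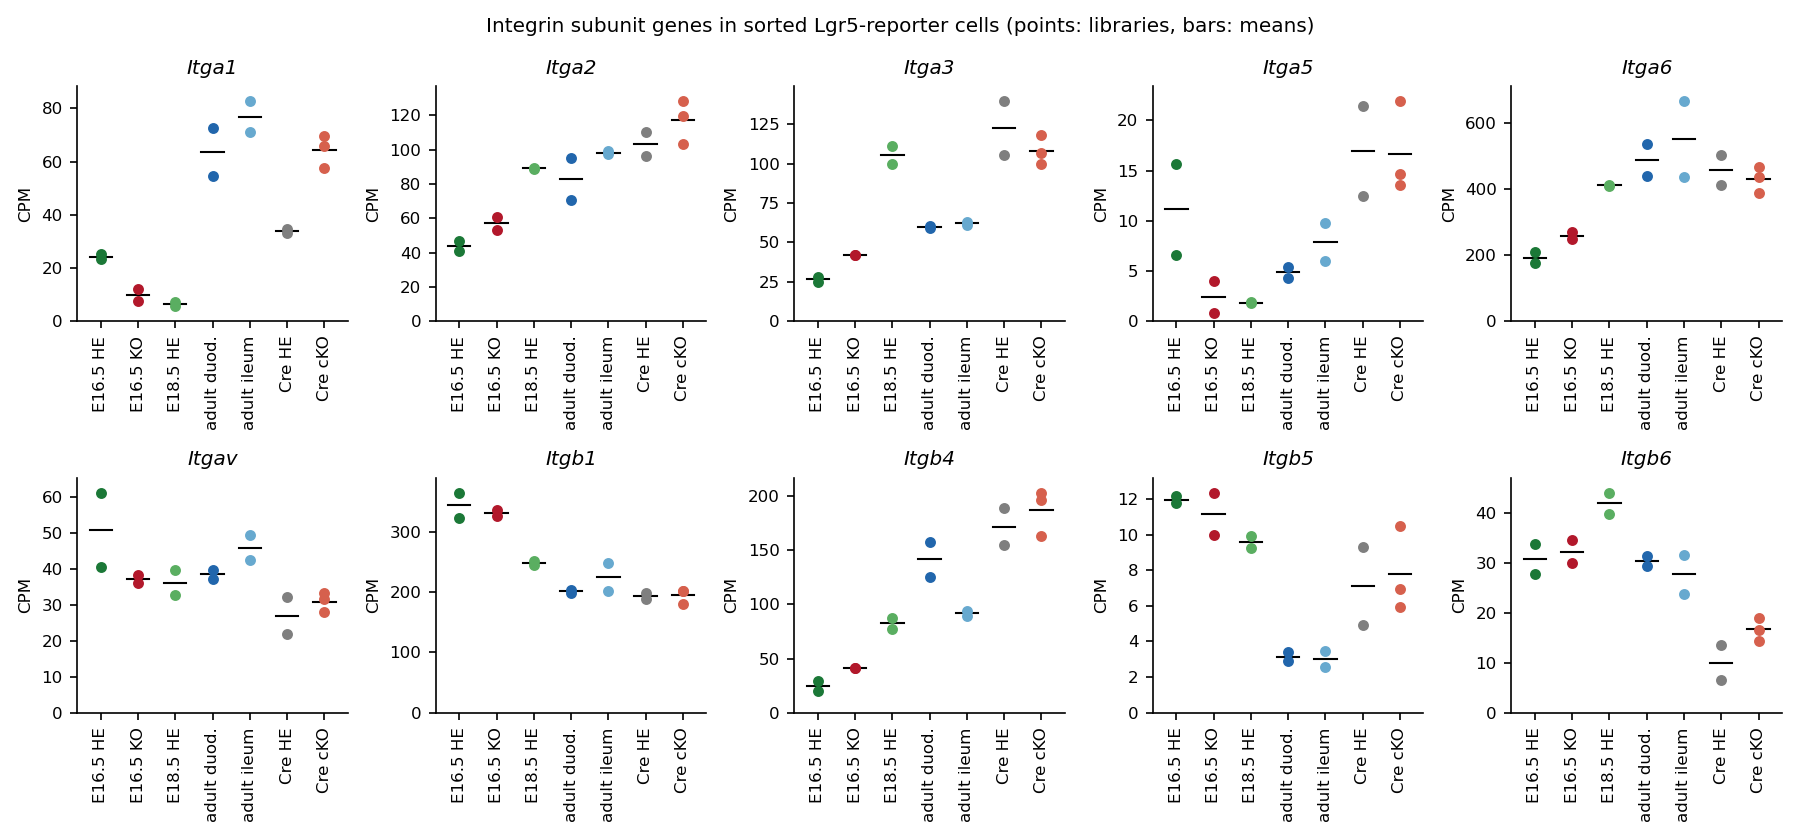
CPM of the 10 integrin genes in the 15 sorted-cell libraries, 1 panel per gene with its own axis from 0, 1 point per library and a bar at each group mean. Itga3 and Itgb4 stand lowest in the E16.5 HE pools, where Itgb1 is highest, and Itga1 is lowest at E18.5 and highest in adult HE cells.

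Between E16.5 and E18.5, HE cells gained RNA for the laminin receptor genes Itga3, Itga6 and Itgb4 and for Itga2, and lost RNA for Itga1 and Itga5. Itgb1, the beta partner of Itga3, was lower but stayed under the fold limit. Called changes (limma, adjusted p under 0.1 and a fold change above 1.5) were found for 6 of 10 genes, 4 higher and 2 lower, where 49.6% of all genes tested were called. The median log2 change was 0.07 over the 10 genes and 0.23 over all genes. The share of called integrin genes thus lies near that of all genes.

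Itga3, which with Itgb1 binds basement membrane laminins, went from 25.1 and 27.75 CPM in E16.5 HE pools to 111.4 and 99.9 CPM in E18.5 embryos. The groups lay far apart, with a log2 change of 1.96 ± 0.139 (SE, adjusted p = 0.000353). Itgb4 went from 19.6 and 29.3 CPM to 77.05 and 87.85 CPM, again without overlap (log2 change 1.74 ± 0.212, adjusted p = 0.00163). Its only partner, Itga6, went from 175.6 and 208.85 CPM to 412.6 and 408.25 CPM (log2 change 1.10 ± 0.114, adjusted p = 0.000986). Both subunits of the hemidesmosome integrin were therefore higher in both E18.5 embryos than in either E16.5 pool. The collagen receptor gene Itga2 went from 40.8 and 46.95 CPM to 88.8 and 89.4 CPM (log2 change 1.01 ± 0.132, adjusted p = 0.00203).

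Its chromosomal neighbour Itga1 moved the other way, from 25.1 and 23.25 CPM at E16.5 to 7.15 and 5.7 CPM at E18.5 (log2 change −1.77 ± 0.245, adjusted p = 0.00246). The fibronectin receptor gene Itga5 went from 15.7 and 6.6 CPM to 1.85 and 1.8 CPM (log2 change −2.00 ± 0.446, adjusted p = 0.0126). For both genes the E16.5 pools lay above the E18.5 embryos, though the 2 pools also lay far apart for Itga5. The summed mesenchyme markers were also lower at E18.5, as given above, and their part in the lower Itga1 and Itga5 was not tested. Itgb1 was at 364.45 and 323.35 CPM at E16.5 and at 252.1 and 244.9 CPM at E18.5, a change of −0.46 ± 0.103 with adjusted p = 0.0123 that stayed under the fold limit. Itgav, Itgb5 and Itgb6 were not called, at −0.45, −0.30 and 0.44 on the log2 scale.

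The calls of this step rest on both E18.5 embryos, since no call by limma was kept when either was left out. Such a fit leaves 1 E18.5 library, and the called genes kept their direction in it. Without E18.5 replicate 1 or 2 the log2 change was 1.88 or 2.04 for Itga3 and −1.91 or −1.63 for Itga1. With TMM scaling, which moved the median log2 change of all genes from 0.23 to 0.10, 8 of the 10 were called, Itgav and Itgb1 being added on the lower side, and the count became 4 higher and 4 lower.

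From E18.5 to the adult, the collagen receptor gene Itga1 showed the widest change of the 10. It was at 7.15 and 5.7 CPM in the embryos, and in the adult at 72.6 and 54.55 CPM in the duodenum and 71.05 and 82.65 CPM in the ileum. Every adult library thus lay far above both embryos (log2 change 3.25 ± 0.191, adjusted p = 8.65e-05). Itga5 was at 1.85 and 1.8 CPM before and 4.3 to 9.75 CPM after (log2 change 1.33 ± 0.31, adjusted p = 0.0267). Without E18.5 replicate 1 or 2 the adjusted p for Itga5 became 0.206 or 0.215. Both genes were thus lower at E18.5 than at E16.5 and than in adult cells.

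On the lower side in the adult were Itga3 and Itgb5, the vitronectin receptor subunit. Itga3 stood at 111.4 and 99.9 CPM at E18.5 and at 59.3 to 63.25 CPM in the 4 adult libraries (log2 change −0.78 ± 0.109, adjusted p = 0.0037). Itgb5 stood at 9.25 and 9.9 CPM and then at 2.55 to 3.45 CPM (log2 change −1.38 ± 0.218, adjusted p = 0.00595). The groups did not overlap for either gene. Thus 4 of the 10 genes were called, 2 in each direction, against 19.0% of all genes. The other 6 had log2 changes from −0.52 to 0.46, and of these Itgb6, which with Itgav activates latent TGF-beta, came nearest to a call (−0.52 ± 0.159, adjusted p = 0.0656, under the fold limit). The E18.5 embryos serve both comparisons of stage, and both regions of a mouse entered as separate libraries, while the means per mouse also gave 4 calls. With the duodenum alone as adult 5 were called, with Itgb4 added (0.77, adjusted p = 0.00374), and with the ileum alone 5, with Itgb6 added (−0.59, adjusted p = 0.057). Paneth cell markers were higher in the adult libraries by the sums given above, and their part in the Itga1 value was not tested. Ddx3y, a gene of the Y chromosome, stood at 56.45 and 59.55 CPM in the E16.5 HE pools. It stood at 74.3 and 0.0 CPM in the E18.5 embryos and at 85.1 to 94.35 CPM in the adult HE libraries. The part of sex in either comparison of stage was not tested.

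**Figure D2:**
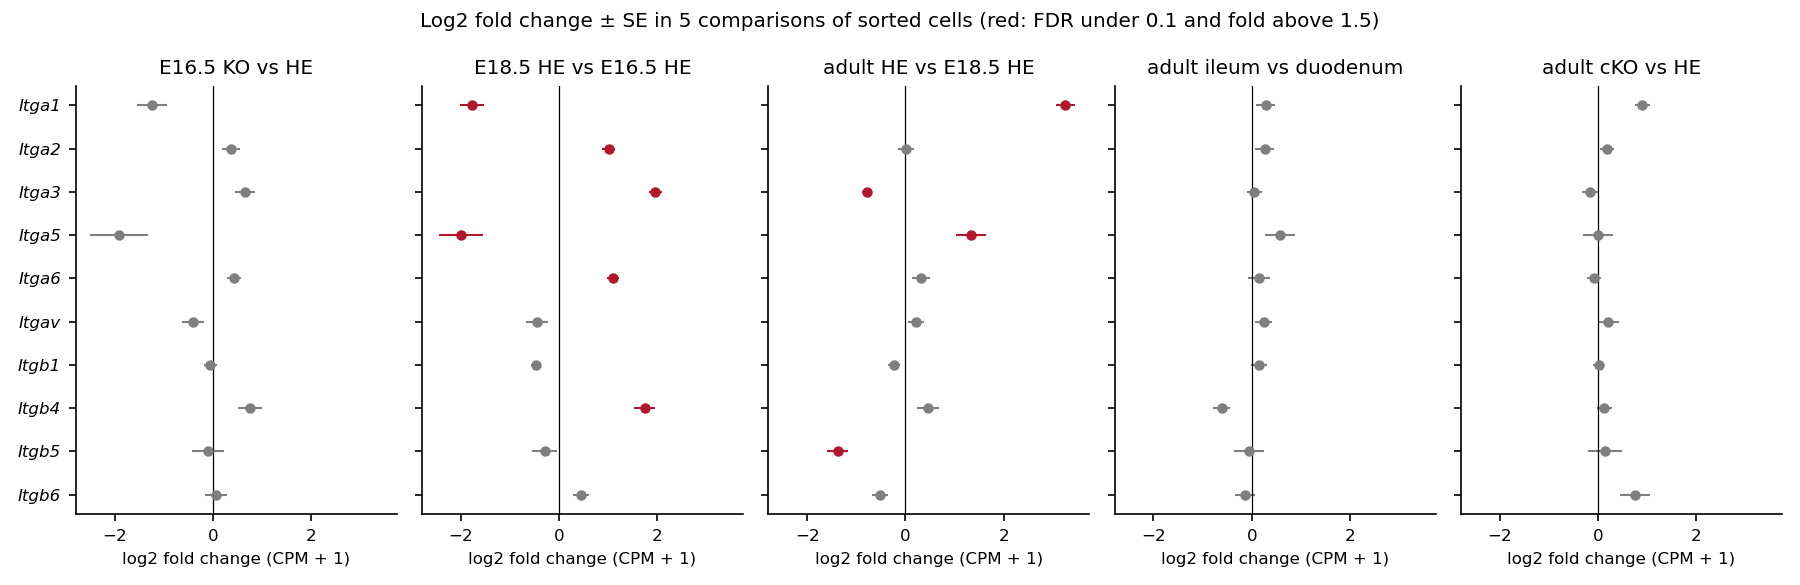
Log2 fold change with its standard error for each integrin gene in the 5 comparisons of sorted cells, with called changes in red. Itga1 runs from −1.77 between E16.5 and E18.5 to 3.25 between E18.5 and the adult, while Itgb1 stays between −0.46 and 0.15.

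Loss of Lgr5 at E16.5 was read first on Lgr5 itself, with 104.25 and 125.1 CPM in HE against 64.75 and 51.65 CPM in KO pools (log2 change −0.97, adjusted p = 0.0795). No integrin gene was called by limma, where 0.527% of all genes were. Of the 10, 5 had an unadjusted p under 0.05, a looser limit at which the share of all genes is not given. DESeq2 on whole reads recovered from the CPM likewise called 0, edgeR called 1, and limma with the litter as a block called 3. Among all genes these called 116, 354 and 830 in that order, where limma without the block called 91.

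The gene with the clearest split was Itga1, with 25.1 and 23.25 CPM in HE against 7.7 and 11.95 CPM in KO pools (log2 change −1.25 ± 0.307). Its adjusted p was 0.142 without and 0.0113 with the litter block, and 0.0642 by edgeR. Itga5 was at 15.7 and 6.6 CPM in HE and at 0.8 and 4.0 CPM in KO pools (log2 change −1.91 ± 0.584, adjusted p = 0.213, or 0.0111 with the block). Itgav was at 61.15 and 40.4 CPM in HE and at 38.3 and 36.15 CPM in KO pools (log2 change −0.41, adjusted p = 0.447). For these 3 genes the KO pools lay below both HE pools. Higher in both KO pools than in either HE pool were Itgb4 (19.6 and 29.3 against 41.0 and 41.3 CPM, log2 change 0.75 ± 0.24, adjusted p = 0.226, or 0.053 with the block), Itga3 (25.1 and 27.75 against 41.75 and 42.1 CPM, adjusted p = 0.225), Itga6 (175.6 and 208.85 against 270.0 and 247.75 CPM, adjusted p = 0.247) and Itga2 (40.8 and 46.95 against 53.25 and 60.75 CPM, log2 change 0.37, adjusted p = 0.405). Itgb1, Itgb5 and Itgb6 differed by −0.05, −0.10 and 0.07 on the log2 scale, less than their standard errors. How many of all genes split without overlap between the HE and KO pools was not counted. The splits above therefore do not set these integrin genes apart from all genes.

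The HE pools of E16.5 are the control here and the starting point of the stage comparison, so the 2 sets of values are not independent. A deviation of these pools would move both in the same direction, so no likeness between the changes is read here. Mesenchyme markers were lower in the KO pools by the sums given above, and red blood cell markers summed to 1057.9 to 1176.5 CPM in HE and 308.35 to 490.85 CPM in KO pools. Their part in these differences was not tested. KO replicate 1, a pool of 2 embryos, had Xist at 1.55 CPM where the other 3 pools had 638.6 to 1224.0 CPM.

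Between adult ileum and duodenum, limma called 0 of the 10 genes without a block and 1 with the mouse as a block, and 1 had an unadjusted p under 0.05. The count of 0 stands near the 6.88% of all genes called and says little of the 10. Among all genes the block gave 2065 calls in place of 1280. The 1 gene was in both cases Itgb4, at 125.05 and 158.25 CPM in the duodenum and 89.8 and 93.65 CPM in the ileum (log2 change −0.61 ± 0.171, adjusted p = 0.115). Both ileum libraries lay below both duodenum libraries, and with the mouse as a block the adjusted p was 0.0203. Its partner Itga6 was at 537.25 and 439.7 CPM in the duodenum and 664.8 and 435.6 CPM in the ileum, with full overlap. The other genes differed by −0.14 to 0.57, with Itga5 at the upper end.

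In the tamoxifen line, none of the 10 genes was called between cKO and HE cells by limma, against 0.0504% of all genes. An unadjusted p under 0.05 was found for 2 of them. Counts at that looser limit, here and below, cannot be set against the shares of all genes called, which use the adjusted p. Itga1 was at 33.05 and 34.7 CPM in the libraries labelled HE and at 65.9, 57.4 and 69.75 CPM in those labelled cKO. The groups did not overlap (log2 change 0.90 ± 0.148, adjusted p = 0.64). Itgb6 was at 13.5 and 6.5 CPM against 16.65, 14.35 and 19.05 CPM (log2 change 0.75 ± 0.309, adjusted p = 0.864). By the genotypes of the supplied table, 0 of the 10 were called, with 3 at an unadjusted p under 0.05 and an Itga1 change of 0.25, where 779 of all genes or 3.92% were called in place of 10. Without the 2 libraries in conflict, which leaves 1 HE library, the Itga1 change was 0.95. The libraries labelled HE had Ddx3y, a gene of the Y chromosome, at 47.3 and 72.95 CPM and those labelled cKO at 0.15 CPM or below, so that sex and labelled genotype cannot be told apart. Lgr5 was at 52.8 and 87.55 CPM in HE and 89.15 to 109.35 CPM in cKO libraries, a sum over the whole gene that does not check the removal of 1 exon. The other 8 genes differed by −0.17 to 0.21 between the labelled groups.

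In organoids, Itga1, Itga2 and Itgb6 were called higher at the high Rspondin dose and Itga3 lower in 5 of 6 contrasts, and the other 6 genes in 0 to 4. Raising Rspo1, Rspo2 or Rspo3 from 5 to 100 ng/ml, in WT and in KO cultures, gave 28 calls (limma, adjusted p under 0.05) among 60 tests of the 10 genes, 21 higher and 7 lower at 100 ng/ml. The contrast with none of these calls was Rspo2 in KO cultures. Among all genes 53.4% were called in WT with Rspo1, 33.4% with Rspo2 and 51.4% with Rspo3, and in KO 29.8%, 0.115% and 44.5%. The counts for the integrin genes in the same order were 5, 5, 7, 5, 0 and 6 of 10, which stand near these shares or somewhat above them, so the counts set the 10 genes little apart from all genes.

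Itga1 in the WT cultures 10, 5 and 30 stood at 16.15, 11.45 and 20.65 CPM in 5 ng/ml Rspo1 and at 63.7, 55.5 and 71.15 CPM in 100 ng/ml (log2 change 1.94 ± 0.266, adjusted p = 4.26e-06). With Rspo3 it went from 15.85, 9.55 and 17.4 CPM to 48.25, 35.45 and 52.55 CPM (1.63 ± 0.266, adjusted p = 2.42e-05). With Rspo2 it stood already at 43.9, 34.5 and 41.8 CPM at 5 ng/ml and at 65.15, 54.9 and 89.45 CPM at 100 ng/ml (0.76 ± 0.266, adjusted p = 0.0311). Every culture was thus higher at the high dose, and the step with Rspo2 was the least wide. In the KO cultures 7 and 2 it went from 22.4 and 29.4 CPM to 96.0 and 46.05 CPM with Rspo1 (1.34 ± 0.325, adjusted p = 0.00397) and from 26.15 and 19.25 CPM to 78.15 and 57.95 CPM with Rspo3 (1.54 ± 0.325, adjusted p = 0.00054). Without KO culture 7 the change with Rspo1 was 0.63 (adjusted p = 0.443), and without WT culture 10 or 30 the change with Rspo2 was 0.87 or 0.61 and not called. Across the 15 pairs of one culture and ligand, Itga1 was higher at 100 ng/ml in 15. Here and for the genes below, these pairs come from 3 WT and 2 KO cultures used with each ligand, so they are not independent replicates.

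Its neighbour Itga2 went from 19.65, 16.75 and 21.35 CPM to 57.35, 48.45 and 49.85 CPM in WT cultures with Rspo1 (log2 change 1.39 ± 0.211, adjusted p = 1.48e-05). With Rspo3 the values were 15.8, 12.25 and 14.7 CPM and then 39.3, 37.9 and 29.75 CPM, and with Rspo2 31.9, 28.45 and 18.75 CPM and then 51.0, 46.45 and 54.3 CPM. All 3 WT cultures rose with each ligand, by 1.26 ± 0.211 for Rspo3 and 0.94 ± 0.211 for Rspo2. KO cultures went from 30.25 and 26.5 CPM to 78.6 and 52.2 CPM with Rspo1 (1.15 ± 0.259) and from 24.35 and 14.05 CPM to 66.9 and 51.25 CPM with Rspo3 (1.61 ± 0.259). Of 15 pairs, 14 were higher at the high dose, the exception being KO culture 2 with Rspo2. The call is lost without WT culture 30 for Rspo2 in WT (0.67, adjusted p = 0.104) and without KO culture 7 for Rspo1 in KO (0.95, adjusted p = 0.09).

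Itgb6, an epithelial subunit that with Itgav binds fibronectin and latent TGF-beta, also rose with the dose. In WT cultures it went from 12.5, 10.8 and 8.65 CPM to 45.7, 45.0 and 33.7 CPM with Rspo1 (log2 change 1.87 ± 0.208, adjusted p = 4.87e-07). With Rspo2 the values were 20.55, 25.25 and 15.35 CPM and then 56.4, 50.05 and 58.55 CPM (1.41 ± 0.208), and with Rspo3 12.7, 7.1 and 8.75 CPM and then 28.7, 27.1 and 21.9 CPM (1.38 ± 0.208). No value at 5 ng/ml reached any value at 100 ng/ml of the same ligand. KO cultures went from 10.1 and 15.3 CPM to 45.7 and 34.75 CPM with Rspo1 (1.6 ± 0.255) and from 9.25 and 7.6 CPM to 44.35 and 30 CPM with Rspo3 (2.00 ± 0.255, adjusted p = 2.04e-06). Higher values at 100 ng/ml were found in 15 of 15 pairs. Without KO culture 7 the change with Rspo1 in KO was 1.13 (adjusted p = 0.0961).

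Itga3 ran opposite. In WT cultures it went from 329.15, 347.2 and 390.75 CPM at 5 ng/ml to 215.05, 207.0 and 199.5 CPM at 100 ng/ml Rspo1 (log2 change −0.77 ± 0.132, adjusted p = 5.21e-05). With Rspo3 the values were 435.1, 414.3 and 465.9 CPM and then 264.55, 228.7 and 247.55 CPM (−0.83 ± 0.132), and with Rspo2 275.5, 242.65 and 265.55 CPM and then 204.3, 209.7 and 163.05 CPM (−0.45 ± 0.132). High-dose cultures lay below all low-dose cultures for each ligand. KO cultures went from 359.3 and 322.45 CPM to 252.2 and 230.0 CPM with Rspo1 (−0.50 ± 0.162) and from 479.0 and 432.85 CPM to 368.0 and 275.25 CPM with Rspo3 (−0.52 ± 0.162). Of 15 pairs, 1 was higher at 100 ng/ml. Calls are lost with Rspo2 in WT without culture 10 (adjusted p = 0.0855) or 30 (0.232), with Rspo1 in KO without KO culture 7 (0.159) or WT culture 5 (0.0512), and with Rspo3 in KO without KO culture 2 (0.132).

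**Figure D3:**
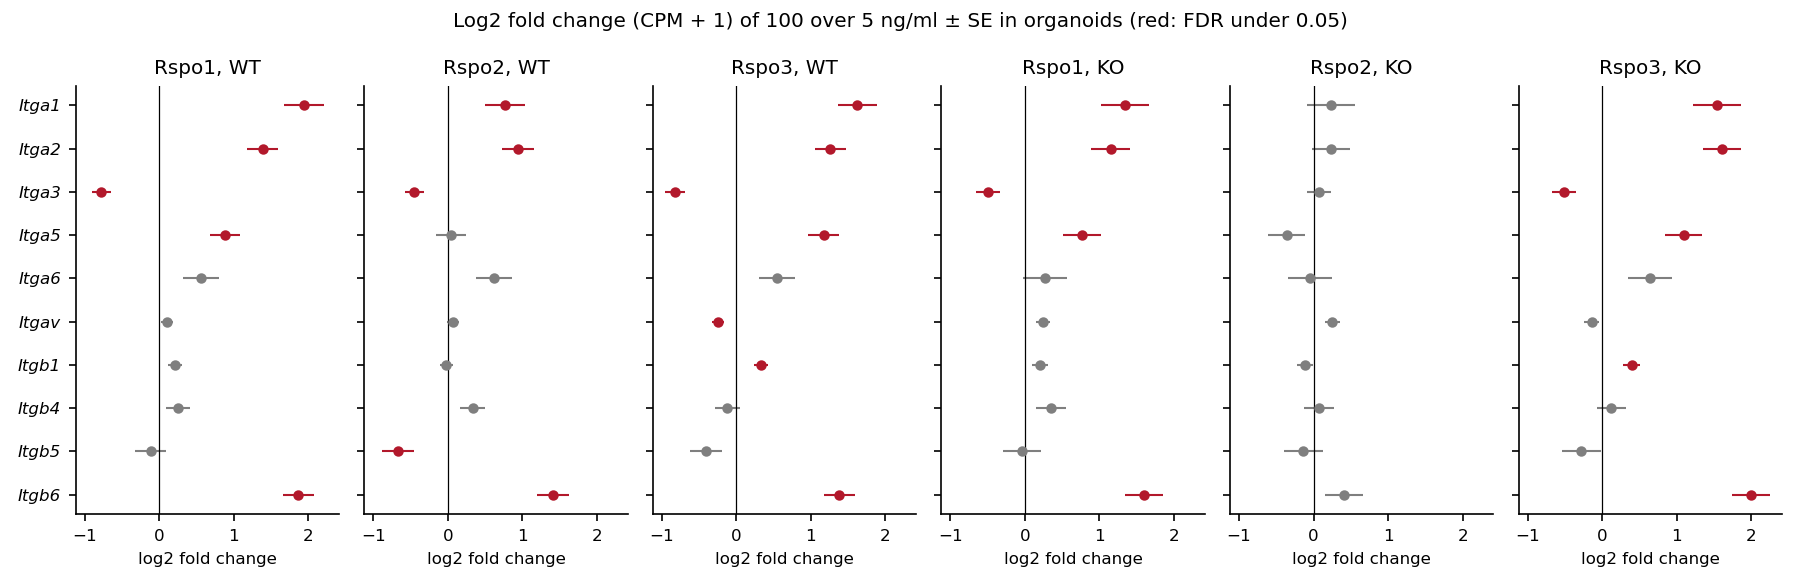
Log2 change from 5 to 100 ng/ml Rspondin of each integrin gene, with its standard error, for 3 ligands in WT and KO organoids, called changes in red. Itga1, Itga2 and Itgb6 lie above 0 and Itga3 below 0 in the 5 contrasts other than Rspo2 in KO cultures, where all 10 genes lie between −0.36 and 0.41.

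The remaining genes moved less or less often. Itga5, at 0.4 to 3.8 CPM in all 30 organoid libraries, was called higher with Rspo1 and Rspo3 in both genotypes (log2 changes 0.77 to 1.17) and not with Rspo2 (0.04 and −0.36). In KO cultures its call with Rspo1 is lost without either culture (adjusted p = 0.422 and 0.125) and its call with Rspo3 without culture 7 (0.0688). Itgb1, the common partner, rose with Rspo3 in WT (0.33 ± 0.0924, adjusted p = 0.00503) and in KO (0.40 ± 0.113, adjusted p = 0.00686), though without KO culture 7 or 2 the latter was not called (adjusted p = 0.0661 and 0.195) and with TMM scaling these changes were 0.04 and 0.10 and not called. Itgav was lower with Rspo3 in WT (−0.25 ± 0.0816, adjusted p = 0.0139, lost without any 1 WT culture) and Itgb5 with Rspo2 in WT (−0.67 ± 0.213, adjusted p = 0.0205, lost without WT culture 10 or 30). Itga6 and Itgb4 were called in no dose contrast by limma without a block, though Itga6 was higher at 100 ng/ml in 14 of 15 pairs and was called with the culture as a block in 4 contrasts (adjusted p = 0.00762, 0.00573 and 0.00862 in WT with Rspo1, Rspo2 and Rspo3, and 0.0136 in KO with Rspo3). Itgb4 was called with the block for Rspo2 in WT (0.33, adjusted p = 0.0178) and Rspo1 in KO (0.35, adjusted p = 0.0418).

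The block also called Itgb1 higher with Rspo1 in WT (0.21, adjusted p = 0.0129) and Itgb5 lower with Rspo3 in WT (−0.41, adjusted p = 0.023). It called Itgav higher with Rspo1 in KO (0.24, adjusted p = 0.0379), for 37 calls in all. Among all genes the block gave 52321 calls over the dose contrasts in place of 40681. CPM were not rescaled between libraries, and in the 5 responsive contrasts the median log2 change of all genes was 0.17 to 0.28, and 0.01 to 0.03 after TMM scaling. Called genes were higher at 100 ng/ml in 72.7% to 76.6% of cases without and 49.0% to 52.0% with that scaling. With it the 10 integrin genes gave 27 calls, 17 higher and 10 lower. The directions of Itga1, Itga2, Itgb6 and Itga3 held, but Itga1 with Rspo2 in WT was no longer called (0.58, adjusted p = 0.111), nor was Itga5 with Rspo1 in KO (0.63, adjusted p = 0.0563). Itgav turned from 0.11, uncalled, to a called −0.21 with Rspo1 in WT and was called lower with Rspo3 in KO (−0.43), as was Itgb5 with Rspo3 in WT (−0.69).

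The cell make-up of the organoids moved with the dose as well. Summed over 6 stem cell markers, WT cultures held 99.55 to 1203.5 CPM at 5 ng/ml and 1330.8 to 5642.9 CPM at 100 ng/ml, and all 6 markers were called higher in each of the 5 responsive contrasts. Paneth cell markers were called higher for 5 or 6 of 6 and enterocyte markers lower for 3 to 5 of 6 in these contrasts. The part of cell make-up in the integrin changes was not tested. Mesenchyme markers summed to only 4.25 to 15.6 CPM in all organoid libraries.

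**Figure D4:**
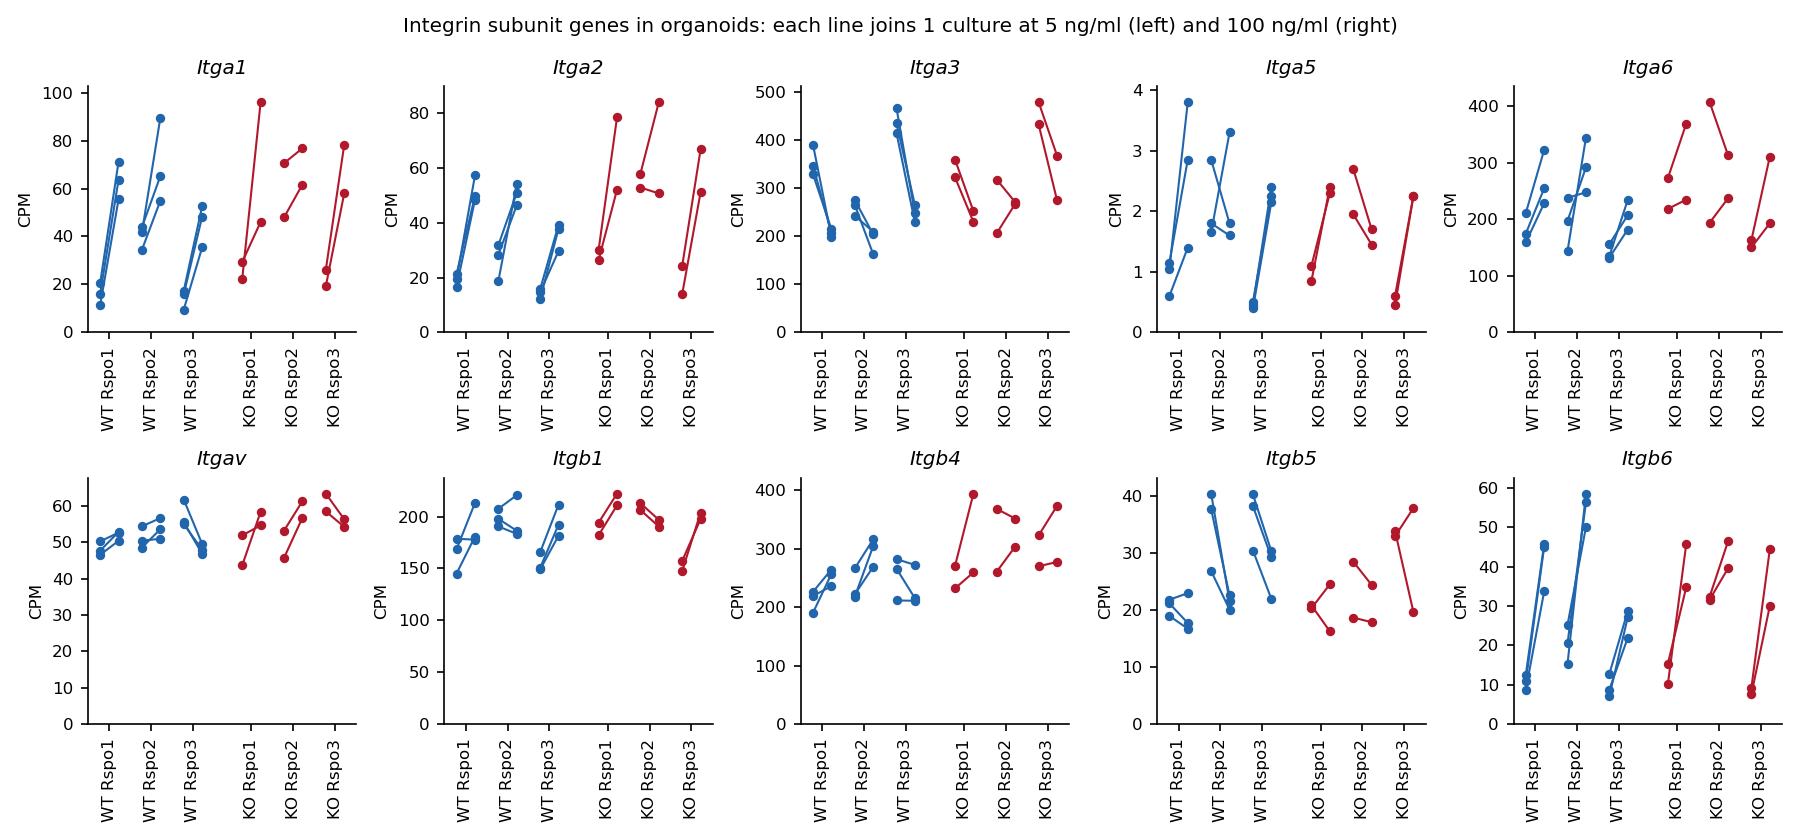
CPM of the 10 integrin genes in the 30 organoid libraries by ligand and dose, with a line joining the 2 doses of 1 culture, WT in blue and KO in red, each panel with its own axis from 0. Itgb6 and Itga2 are low at 5 ng/ml Rspo1 and Rspo3 in both genotypes, while in Rspo2 at 5 ng/ml the KO cultures stand above the WT cultures.

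At 5 ng/ml the ligands differed. Against Rspo1 in WT cultures, Rspo2 gave higher Itga1 (log2 difference 1.29 ± 0.266, adjusted p = 0.00179), Itgb6 (0.86 ± 0.208, adjusted p = 0.00559), Itgb5 (0.71 ± 0.213), Itga5 (0.67 ± 0.207) and Itgb1 (0.28 ± 0.0924) and lower Itga3 (−0.44 ± 0.132), or 6 of 10 genes where 22.8% of all genes were called. In KO cultures Rspo2 gave higher Itgb6 (1.29 ± 0.255, adjusted p = 0.00228), Itga1 (1.15 ± 0.325), Itga2 (0.94 ± 0.259) and Itga5 (0.75 ± 0.253), 4 of 10 against 17.9% of all genes. Thus Itga1, Itga5 and Itgb6 were higher with Rspo2 than Rspo1 in both genotypes at the low dose. Rspo3 gave higher Itgav than Rspo1 in WT (0.25 ± 0.0816) and in KO (0.35 ± 0.0999) and higher Itgb5 in WT (0.78 ± 0.213), where 16.4% of all genes were called in WT and 16.2% in KO. With TMM scaling Itgb1 (0.17, adjusted p = 0.32) and Itgb5 (0.61, adjusted p = 0.0655) in WT and Itga5 (0.65, adjusted p = 0.0714) in KO were no longer called for Rspo2, and Itga3 in KO was called lower for Rspo2 (−0.58) and higher for Rspo3 (0.55).

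At 100 ng/ml no integrin gene was called between ligands by limma. Among all genes 0.204% were called for Rspo2 against Rspo1 in WT and 0.0105% in KO, and 0.00523% for Rspo3 against Rspo1 in WT and 0% in KO. Over these 4 contrasts 4 of 40 tests had an unadjusted p under 0.05, a limit at which the share of all genes is not given. With the culture as a block, Rspo3 against Rspo1 in WT called 4 genes, namely Itga1 (−0.49, adjusted p = 0.0477), Itga2 (−0.54, adjusted p = 0.0247) and Itgb6 (−0.65, adjusted p = 0.0226) lower and Itgb5 (0.48, adjusted p = 0.0367) higher. Over all 8 ligand contrasts the block gave 26 calls in place of 13, and 26746 in place of 14068 among all genes. It added, at 5 ng/ml, Itga2 in 3 contrasts (adjusted p = 0.0378, 0.0439 and 0.0212), Itga3 in 3 (adjusted p = 0.0432, 0.0248 and 0.025), and, for Rspo3 in KO, Itga6 (−0.64, adjusted p = 0.0288), Itgb1 (−0.30, adjusted p = 0.0142) and Itgb5 (0.67, adjusted p = 0.00914). Single cultures weigh on these counts, which fell to 4 without WT culture 10, to 8 without WT culture 5 or 30 and to 7 without KO culture 7, which removed every KO call (Itga1 0.69, Itga2 0.97, Itga5 0.82, Itgb6 1.0 and Itgav 0.17). The contrasts share the Rspo1 libraries with each other and their libraries with the dose contrasts.

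Between genotypes, 1 of 60 tests was called. In 5 ng/ml Rspo2, Itga2 stood at 31.9, 28.45 and 18.75 CPM in WT cultures and at 58.0 and 52.95 CPM in KO cultures (log2 difference 1.08 ± 0.236, adjusted p = 0.013), where 4.54% of all genes were called. Both KO cultures lay above all WT cultures. Without WT culture 30 the difference was 0.86 with adjusted p = 0.153. Itgb6 in the same medium was at 20.55, 25.25 and 15.35 CPM in WT and 32.35 and 31.6 CPM in KO, without overlap and without a call (0.65 ± 0.233, adjusted p = 0.103). Stem cell markers summed to 459.2 to 1203.5 CPM in these WT and 1640.5 to 3515.6 CPM in these KO cultures, and Paneth cell markers to 376.05 to 441.2 CPM and 1042.9 to 1048.2 CPM. Their part in the Itga2 difference was not tested.

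In the other 5 media, limma called 0 integrin genes between KO and WT, where 0.125% of all genes were called in Rspo1 at 5 ng/ml, 0.214% in Rspo1 at 100, 1.20% in Rspo2 at 100, 0.193% in Rspo3 at 5 and 0.868% in Rspo3 at 100 ng/ml. Among these 50 tests 9 had an unadjusted p under 0.05, and the share of all genes at that limit is not given. Leaving out KO culture 2 gave calls for Itga2 (0.90), Itga3 (0.58) and Itgb4 (0.69) in Rspo3 at 100 ng/ml, and leaving out KO culture 7 gave calls for Itga6 (1.10) and Itgb5 (−0.85) in Rspo2 at 5 ng/ml. Ddx3y was at 0.45 CPM or below in every WT library and at 55.0 to 73.5 CPM in every KO library, so that sex and genotype of the cultures cannot be told apart.

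Whether the dose response itself differed by genotype was tested as an interaction. No integrin gene was called by limma for any ligand, where 0% of all genes were called for Rspo1, 0.439% for Rspo2 and 0% for Rspo3. Of 30 tests, 3 had an unadjusted p under 0.05, a limit at which the share of all genes is not given. The lowest adjusted p was that of Itgb6 with Rspo2 (difference of log2 changes −1.0 ± 0.33, adjusted p = 0.192). With the culture as a block Itgb6 was called for Rspo2 (−1.0 ± 0.282, adjusted p = 0.049). Among all genes that block gave 761 interaction calls over the ligands in place of 84. In KO cultures with Rspo2, the dose step of the 10 genes called 0, with 1 unadjusted p under 0.05, and Itga1 was at 70.55 and 47.95 CPM at 5 ng/ml and 76.75 and 61.65 CPM at 100 ng/ml, which overlap.

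The receptor mix, as parts of the summed level per kb, is given for the sorted groups and for the organoid media separately. The sorted cells and the organoids were not compared with each other. Among the 6 alpha genes, Itga6 made up 51.4% to 64.3% in the sorted groups. Among the 4 beta genes, Itgb1 went from 88.3% in the E16.5 HE pools to 75.0% at E18.5, and Itgb4 went from 3.65% to 14.5%, and to 27.0% in adult duodenum and 18.0% in adult ileum. These shares are a description of group means with no test. In WT organoids Itga3 made up 68.7% of the alpha genes in 5 ng/ml Rspo1 and 44.2% in 100 ng/ml, and 76.3% and 55.0% with Rspo3. Itga6 there went from 22.2% to 36.2% with Rspo1 and from 15.5% to 29.3% with Rspo3. All these shares use the joined length of a gene's exons, 9025 bases for Itga6 and 5710 for Itga3. The longest transcripts have 4310 and 4861 bases, so with them the shares of Itga6 would be higher. Whether Itga3 or Itga6 stands first in WT organoids at 100 ng/ml Rspo1 depends on that choice.

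**Figure D5:**
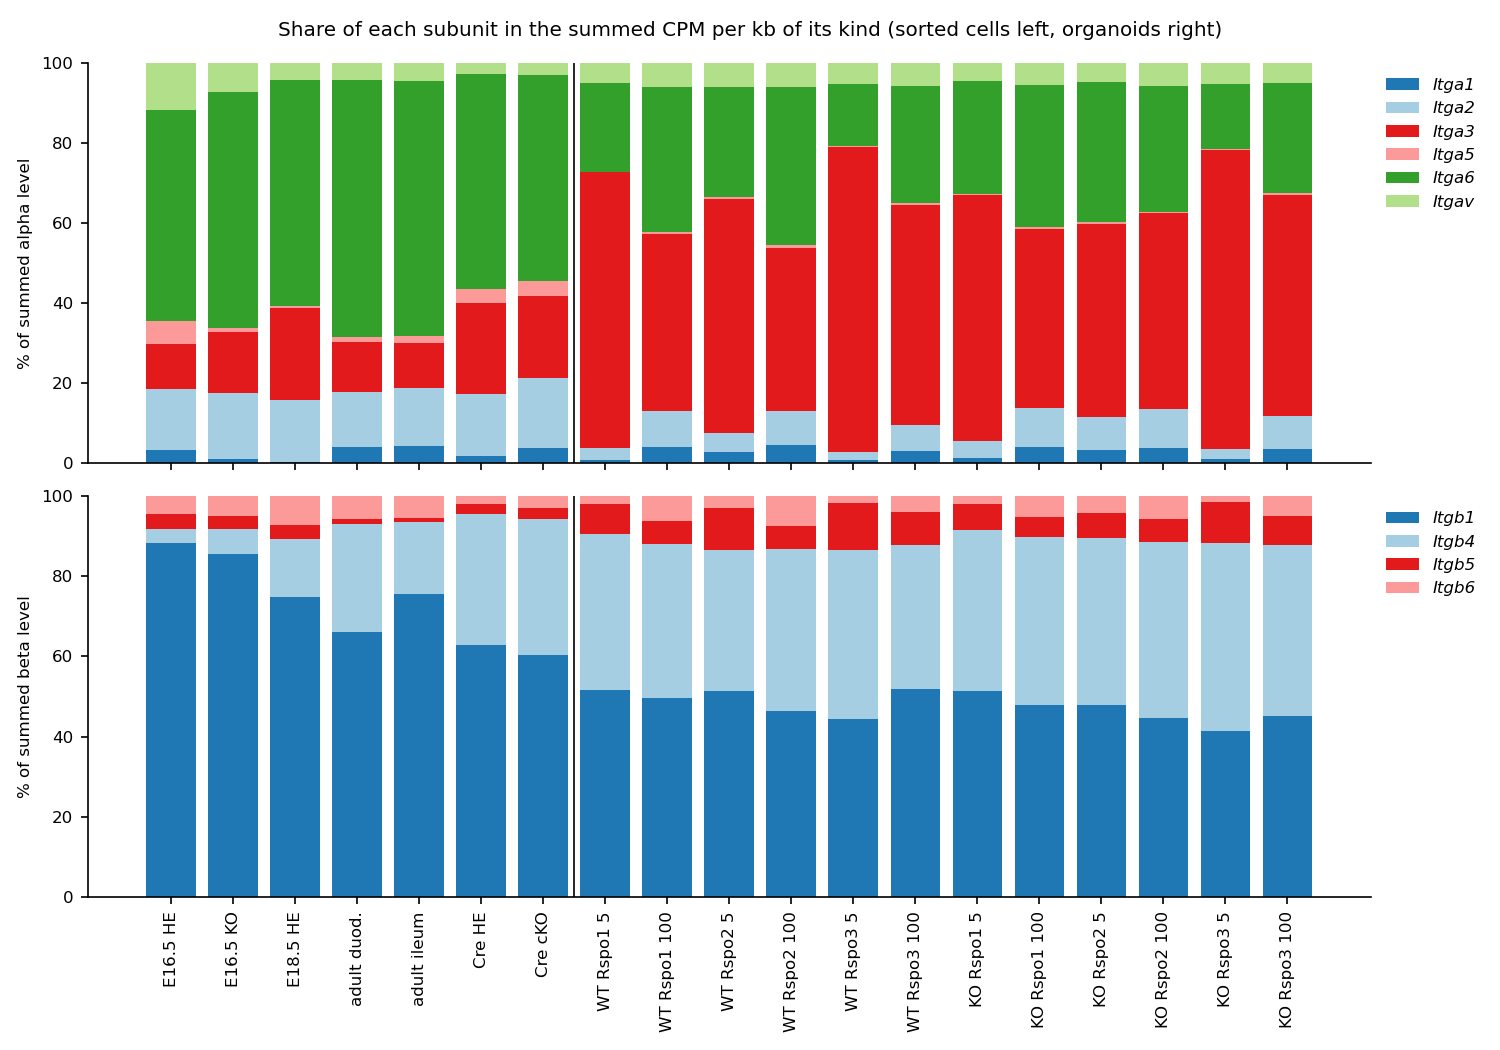
Share of each gene in the summed CPM per kb of the 6 alpha genes and of the 4 beta genes, in percent, by group. Shares use the joined length of a gene's exons and depend on that choice. Itga6 takes 51.4% to 64.3% of the alpha sum in the sorted groups. Within the organoids Itga3 takes its highest share, 76.3%, in WT cultures at 5 ng/ml Rspo3. Sorted cells and organoids were made with different kits and are not compared.

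Ligands and partners of the receptors were read from 5 lists. At E16.5, 0.527% of all genes tested were called between KO and HE pools. Of 11 tested RGD and fibrillar collagen ligand genes, 2 were called lower in KO than in HE pools and none higher. These were Col3a1, a fibrillar collagen (log2 change −2.10), and Fn1, fibronectin (−1.61). The list median was −1.61, against 0.08 over all genes. None of 14 laminin and collagen IV genes (median −0.53) and none of 19 adaptors and kinases (median 0.17) was called there by limma. With so small a share of all genes called, the lack of calls says little of either list. Of 12 other integrin subunits, 1 was called lower, Itga9 (−1.87). Mesenchyme markers moved with these genes, as given above.

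Between E16.5 and E18.5, where 49.6% of all genes were called, all 11 tested RGD and fibrillar collagen ligand genes were called lower (median −2.56, Fbn1 −4.72 and Col3a1 −4.36), as were 9 of 14 laminin and collagen IV genes with none higher (median −1.48, Lama4 −4.96 and Col4a1 −3.89) and 10 of 12 other integrin subunits (median −1.43, Itga9 −4.24, Itga8 −3.34 and Itga4 −3.15). Mesenchyme markers summed to 498.65 to 629.6 CPM at E16.5 and 38.85 to 55.35 CPM at E18.5, and their part in these lower values was not tested. Of 20 adaptors and kinases, 7 were called higher and 4 lower, with Fermt2 the widest at −3.90. Of 7 hemidesmosome and tetraspanin genes, 3 were called higher and 2 lower, among them Tspan8 (0.93) and Cd9 (−0.89). From E18.5 to the adult, where 19.0% of all genes were called, 6 of 8 RGD and fibrillar genes and 5 of 13 laminin and collagen IV genes were called lower and 1 higher, Lamb3 (1.94), a chain of the laminin bound by Itga3 and Itga6.

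In organoids, of 13 laminin and collagen IV genes tested, 8, 9 and 3 were called higher at the high dose in WT with Rspo1, Rspo2 and Rspo3 and 6 and 5 in KO with Rspo1 and Rspo3, with none lower. Among all genes 53.4%, 33.4%, 51.4%, 29.8% and 44.5% were called in these contrasts, so that the list stood below that share with Rspo3 and close to it with Rspo1 in WT. Lama5 rose by 3.74 with Rspo1 and 2.5 with Rspo2 in WT, and Lamb2 rose by 3.04 with Rspo1 and 2.5 with Rspo3. These code for chains of the laminins that Itga3 and Itga6 bind. Npnt, a ligand of integrins of the basement membrane, rose in the same 5 contrasts by 1.79 to 2.81. The talin gene Tln2 and the adaptor Parva were called higher with Rspo1 and Rspo3 in both genotypes (Tln2 2.05 to 3.07). The hemidesmosome gene Dst was called lower with all 3 ligands in WT (−0.52 to −1.06). Npnt, Tln2, Parva and Dst were picked from their lists after their values were seen. They do not stand for the other members of these lists, whose counts in organoids are not given here. Between genotypes, Col4a1 and Col4a2, the collagen IV chains that Itga1 binds, were higher in KO cultures in Rspo2 at 5 ng/ml (2.88 and 2.93), Rspo2 at 100 ng/ml (2.55 and 2.81) and Rspo3 at 100 ng/ml (3.04 and 2.99). Among all genes 4.54%, 1.20% and 0.868% were called in these media. Both genes were picked after their values were seen, and the other media and the rest of their list are not given. Sex and genotype of the cultures cannot be told apart here either.

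Across the 15 sorted-cell libraries, the genes whose log2 level ran most like each member were read among 10921 or 10922 genes by Pearson correlation, as a description, since the libraries share stages and litters. Itgb4 ran most like Prr14, Tnk1 and Hip1r (r = 0.988, 0.986 and 0.984), Itgb1 like Capza2, Mtf2 and Cryz (0.978, 0.967 and 0.966), and Itga1 like Pls3, Retreg1 and Ntn4 (0.974, 0.973 and 0.951). Itga3 ran like Rpap1, Lrp4 and Zdhhc5 (0.974, 0.973 and 0.971), Itga2 like Tubgcp6, Map2k5 and Dhx57 (0.971, 0.969 and 0.968), and Itga6 like Dapk2, Exoc1 and Cdc37l1 (0.968, 0.957 and 0.954). Itgb6 ran like Atp6v1a, Gprin3 and Frs2 (0.963, 0.948 and 0.945), Itgb5 like Pkdcc, Bub1b and Tpx2 (0.942, 0.941 and 0.939), Itga5 like Ctss, Gm16933 and Tnfrsf1a (0.941, 0.925 and 0.925), and Itgav like Fnip1, Adgrl2 and Acbd5 (0.871, 0.861 and 0.856). Among the members themselves, Itgb1 and Itgb4 ran opposite in sorted cells (r = −0.95, n = 15). In the 30 organoid libraries, which share cultures, Itga1 ran with Itga2 (r = 0.918) and Itgb6 (r = 0.908), and Itga3 ran against Itgb6 (r = −0.825).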

How the data were processed

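RNA-seq was measured in 15 sorted-cell libraries (Ovation SoLo kit) and 30 organoid libraries (NEBNext kit after rRNA depletion). Per the labels and the study's methods, the authors trimmed reads with Trimmomatic 0.36, aligned them to GRCm38 with STAR 2.5.3a, counted them per gene with HTSeq 0.9.1 and deposited CPM, each gene's count scaled to the same total per library and rounded up to steps of 0.05. Genes were tested on log2(CPM + 1) with limma 3.58.1 in R 4.3.3 (lmFit, eBayes with trend) without further scaling, so a fold change of a low gene is understated. Genes entered a fit where the number of libraries reaching 1 CPM was no lower than the size of the smallest group, and p-values were adjusted by Benjamini-Hochberg over all genes tested. Sorted comparisons were fitted on their own groups and called at an adjusted p under 0.1 and a fold change above 1.5. Organoids were fitted once over 12 groups and called at an adjusted p under 0.05. ± after a log2 change is the standard error. Counts of genes at an unadjusted p under 0.05, and statements that groups did not overlap, are given without the share of all genes.

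Library depth was read from the steps between low CPM values. In the 4 E16.5 pools 100.0% of values up to 100 reads came out whole, and edgeR 4.0.16 and DESeq2 1.42.0 were run on those reads. Scripts were tested on simulated data. Alternatives were TMM scaling, a pseudocount of 0.1, other filters and thresholds, replicate blocks, and leaving out each library or culture. No 2 replicates agreed within sampling noise. Embryonic pools, mice and cultures are separate sources, but organoid media split 1 culture each. The 30 organoid libraries thus come from 3 WT and 2 KO embryos. The fit without a block took them as separate, so its p-values do not allow for the shared cultures.

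Same-numbered samples are tied by the litter at E16.5 (labels; correlation of deviations −0.0324), by the mouse in ileum and duodenum (0.257) and by the culture in organoids (0.353 to 0.781). All 10 genes were named, with up to 3 called genes of widest change per list and the 3 genes of highest correlation with each member; any other list gene given across several contrasts was picked after its values were seen. The members and lists were chosen with earlier results of these data known. Genotypes of the tamoxifen line follow the labels. Promoter windows are from RefSeq, and figures were drawn with matplotlib 3.10.9.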

Additional observations from a re-analysis of the deposited data

Results flagged for a closer look

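The dose response of Itgb6 to Rspo2 differed between KO and WT organoids when the culture entered as a block, with a difference of log2 changes of −1.0016 ± 0.282 (limma, adjusted p = 0.049). It was flagged because the test of the difference itself passed the threshold there. In WT cultures 10, 5 and 30 Itgb6 went from 20.55, 25.25 and 15.35 CPM at 5 ng/ml to 56.4, 50.05 and 58.55 CPM at 100 ng/ml, and in KO cultures 7 and 2 from 32.35 and 31.6 CPM to 46.4 and 39.55 CPM. It was higher at 100 ng/ml in all 5 cultures. Without the block the adjusted p was 0.192. Stem cell markers at 5 ng/ml Rspo2 summed to 459.2 to 1203.5 CPM in WT and 1640.5 to 3515.6 CPM in KO cultures, and their part in the difference was not tested.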

How the results depend on the processing

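Of 3150 values of single genes under alternatives, 1 reversed with a call: Itgav with Rspo1 in WT organoids went from 0.11, uncalled, to a called −0.21 with TMM scaling. Another 130 changed sign without a call in either fit, 22 of them with TMM scaling. At E16.5, limma called 0 integrin genes between KO and HE, 4 with 1 fit of all 15 libraries and 3 with the litter as a block. By edgeR 1 was called, or 2 with the litter block (an alternative chosen after seeing the data). Among all genes these fits called 91, 1073, 830, 354 and 764 in that order. The step from E18.5 to the adult called 4 and, with a mean of at least 10 CPM, 2, since Itga5 and Itgb5 were then not tested. With the duodenum alone or the ileum alone as adult it called 5. Ileum against duodenum called 0, and 1 with 1 fit of all libraries or with the mouse as a block. Among all genes these fits called 1280, 1385 and 2065 in that order. With the culture as a block, ligand contrasts called 26 in place of 13 and the interaction 1 in place of 0. Among all genes these counts were 26746 in place of 14068 and 761 in place of 84. Between organoid genotypes culture cannot be a block, because each culture has 1 genotype. There it entered as a correlation shared by the libraries of 1 culture, and changed no call. Numbers that tie no samples gave 6 calls for E18.5 against E16.5 (correlation of deviations −0.0186) and 0 for cKO against HE (0.161 and 0.419) when used as a block.

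Leaving out 1 library or culture gave 0 to 0 calls at E16.5, 0 to 7 for E18.5 against E16.5, 3 to 4 for the adult, 0 to 0 for region and 0 to 0 for cKO, 23 to 30 for the dose, 0 to 4 for organoid genotype, 4 to 11 for ligands and 0 to 1 for the interaction. A lone library left in a group is then assumed to vary like the others. The cause of these shifts was not tested. Count models were not run on the other sorted comparisons, and groups of 2 or 3 libraries allow no test for a single deviant sample. Depth limits values near 1 read, which was worth up to 0.7837 CPM in sorted libraries, such as Itga5 in the E16.5 KO pools.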
